A study of Danio rerio with 9 samples.

Results

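Larval zebrafish exposed to 0.1 µg/L perfluorononanoic acid (PFNA), a long-chain perfluoroalkyl acid, were compared with the solvent control, 0.1% dimethyl sulfoxide (DMSO). The comparison used 6 of the 9 RNA-seq libraries of the study, DMSO replicates 1, 2 and 3 and exposed replicates 1, 2 and 3, and left aside the 3 libraries of larvae exposed to 10 µg/L PFNA except where their values are named. All larvae were offspring of AB × Tübingen wild-type parents, all were held for 7 days from embryonic stages in rearing medium, and the PFNA solutions carried the same 0.1% DMSO as the control. Every library was made from the whole bodies of the 14 to 15 larvae of one beaker pooled together, so a value is the sum over all tissues of these larvae and a p-value measures the spread between beakers. The table for 0.1 µg/L held 19251 genes. Of these, 19065 averaged 10 or more normalized counts and were compared, where a normalized count is the number of reads on a gene divided by the size factor of the library. Differences are given on the scale of log2 of the normalized count plus 1, exposed minus DMSO, with the standard error of the moderated test of limma.

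A zebrafish larva at this age hunts by sight, digests food with a working liver, pancreas and intestine, and takes up and excretes ions and chemicals across skin, gut and pronephros. The lens is packed with crystallins, the retina has a layer of rods and cones whose light response runs through opsin, transducin and a cyclic GMP phosphodiesterase, and the adjoining pigment epithelium recycles retinal in the visual cycle. Perfluoroalkyl acids resemble fatty acids, bind albumin and fatty acid binding proteins, and are known from rodents to accumulate in liver and to act on PPAR receptors. The comparison was read with 20 lists of tissue marker genes and 36 lists of functional groups. These hold 3285 of the tested genes, of which 148 are in more than 1 list.

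The 6 libraries held 14491289 to 23959750 reads on genes. Marker genes of the main tissues were present. The lens was represented by crybb1, the photoreceptors by opn1sw1 and rho, the liver by fabp10a and the exocrine pancreas by prss1. The skin was represented by krt4, skeletal muscle by actc1b and the intestine list by its highest gene, apoa1b. Each had at least 4500 normalized counts in every library. The liver list also holds apolipoprotein genes, so apoa1b alone does not mark the intestine. In a principal component analysis of the 6 libraries, the first component held 48.4% of the variance and did not follow exposure. DMSO replicate 3 scored 69.4 and exposed replicate 2 scored 41.4, while DMSO replicates 1 and 2 scored -25.6 and -10.5 and exposed replicates 1 and 3 scored -49.2 and -25.4. The weight of a gene on a component is its loading. Lens genes had the most negative median loading of the 56 lists on the first component, and intestine and liver genes the most positive. Loadings were positive in 6.12% of lens, 16.7% of photoreceptor and 11.1% of visual cycle and pigment genes. They were positive in 97.7% of liver and 91.1% of intestine genes, beside 49.9% of all genes. DMSO replicate 3 also stood apart gene by gene, with the highest value of the 6 libraries in 25.2% of the genes and the lowest in 26.4%. The second component held 18.4% and set DMSO replicate 1, at -53.0, apart from the other libraries, which scored between -6.30 and 24.2. The first sequencing index was the same in the 3 exposed libraries and DMSO replicate 3 and differed in DMSO replicates 1 and 2, so for those controls the index and the group cannot be told apart. Values without the libraries that stand apart are given beside the results that rest on them.

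**Figure D1:**
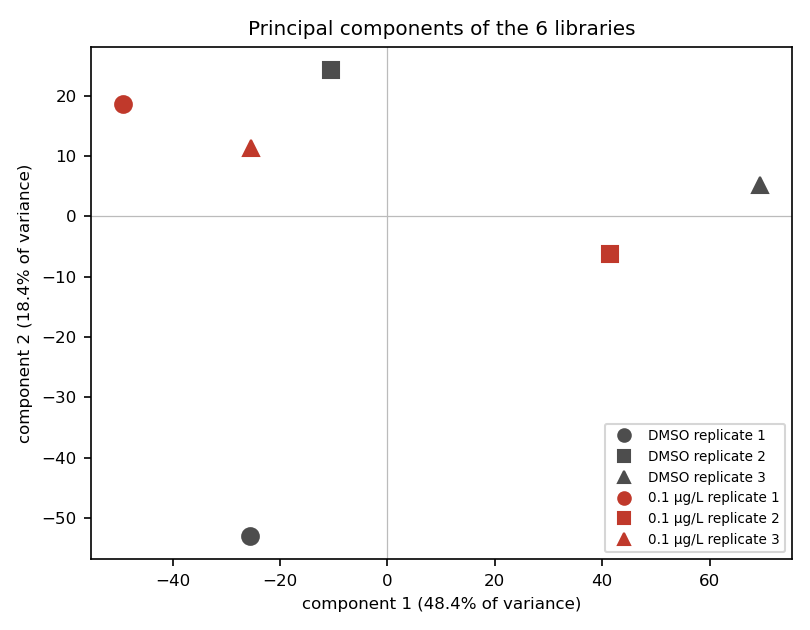
Scores of the 6 libraries on the first principal component (x axis, 48.4% of the variance) and the second (y axis, 18.4%), DMSO in grey and 0.1 µg/L PFNA in red, with symbols for the replicates. DMSO replicate 3 and exposed replicate 2 lie together on the right at 69.4 and 41.4, and the groups overlap on both axes.

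No gene differed between 0.1 µg/L PFNA and DMSO by limma at an adjusted p under 0.05 (0 of 19065 genes, 0%), and the lowest Benjamini-Hochberg adjusted p was 0.9999. At an unadjusted p under 0.05 there were 299 genes by limma (1.57%), 311 by edgeR and 268 by DESeq2, and neither edgeR nor DESeq2 gave a gene at an adjusted p under 0.05. Of the 299 genes, 144 were higher (0.755% of the genes tested) and 155 lower (0.813%) in the exposed larvae. This count was the lowest without exposed replicate 3, at 110 genes, and was 159 genes without exposed replicate 1. It was 853 genes without DMSO replicate 1 and 817 without exposed replicate 2. The differences were small in general, since the median absolute log2 difference over all genes was 0.16 and the median difference 0.0035. Of all genes, 50.6% had a higher mean log2 level in the exposed larvae, called above DMSO here. This share was 47.4% by edgeR and 53.9% with a minimum mean of 50. Counts of list members above or below DMSO are to be read beside it. Another way to read the libraries is to ask in how many genes the 3 exposed values lie wholly above or below the 3 DMSO values. This was so in 695 genes above (3.65%) and 569 genes below (2.98%), 6.63% together. Every gene named here is therefore a description of 6 libraries and not a gene shown to respond to PFNA.

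**Figure D2:**
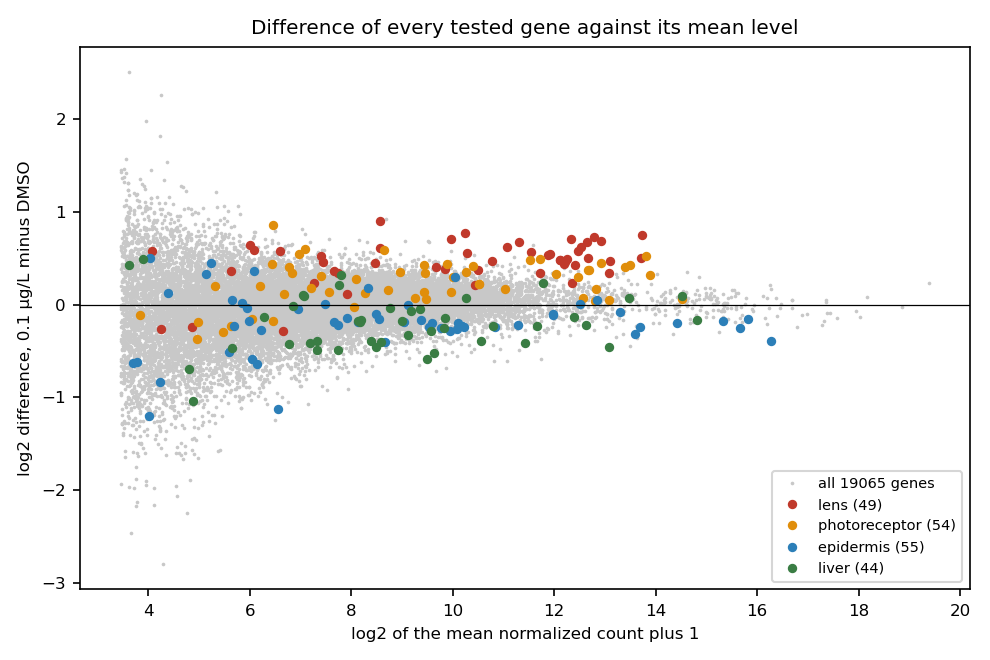
Log2 difference between 0.1 µg/L PFNA and DMSO (y axis) against log2 of the mean normalized count plus 1 (x axis) for the 19065 tested genes, with lens, photoreceptor, epidermis and liver genes in color. Of the lens genes, 46 of 49 lie above 0 and of the epidermis genes 43 of 55 lie below 0.

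Genes of the eye led the higher side. On the first component, which did not follow exposure, most of them had loadings opposite in sign to most liver and intestine genes. Lens genes had the highest median of the 20 tissue lists, 0.50 against 0.0035 for all genes, and 46 of 49 lens genes had a higher mean log2 level in the exposed larvae. At an unadjusted p under 0.05, 16 of the 49 were higher and 0 lower, beside 0.755% and 0.813% of all genes. In 10 of the 49 all 3 exposed libraries were above all 3 DMSO libraries, beside 3.65% of all genes. The lens genes below DMSO were lim2.2, crygm2f and crybb1l3, with DMSO means of 30.6, 109 and 19.7 normalized counts. Other genes of low level, such as crygm5 and cryba1a with DMSO means of 75.9 and 53.4, were above DMSO. In bulk RNA of whole larvae, fewer or more cells of a type and less or more RNA per cell cannot be told apart.

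The gene of the lens with the smallest p was bfsp2 (ENSDARG00000011998), which encodes phakinin, a protein of the beaded filament that is made in lens fiber cells. It had 316, 201 and 281 normalized counts in DMSO replicates 1, 2 and 3 and 482, 468 and 523 in the exposed replicates. The exposed libraries all lay above the controls, with a log2 difference of 0.90 ± 0.20 (unadjusted p = 0.00104). With a library left out the difference was 0.71 to 1.04. The water channel gene mipa, the most abundant membrane protein of fiber cells, had 869, 788 and 732 in DMSO and 987, 1061 and 1074 in the exposed larvae, a log2 difference of 0.39 ± 0.14 without overlap. Lengsin, lgsn, a glutamine synthetase relative found in the lens, had 157, 127 and 133 in DMSO against 189.9, 215 and 193. Its groups did not overlap either, and its log2 difference was 0.53 ± 0.19.

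Crystallins fill the lens and give it its refractive power, and the gamma-M crystallins of fish are a large family of closely similar genes. In crygm2d5 the values were 1044, 629.9 and 639 in DMSO and 1481, 1079 and 1156 in the exposed larvae, a log2 difference of 0.71 ± 0.22. For crygm2d13 they were 5697, 3510.0 and 2832 and 6332, 6345 and 6143, with a difference of 0.71 ± 0.24. In both genes DMSO replicate 1 was the highest of the controls and lay close under the exposed libraries. The beta crystallin gene cryba2a had 4480.5, 3863 and 2781 in DMSO and 5522, 4827 and 4966 in the exposed larvae, again without overlap. Over the family, 19 of 20 crygm genes were above DMSO with a median of 0.48, the highest median of the 313 families of 8 or more genes that share a symbol stem. Because only reads that mapped to 1 place were counted, the division of reads among near-identical crygm2d copies is uncertain, and these genes are not separate measurements of the lens. The beta crystallin genes of the list other than crybb1l3 were also above DMSO, as were bfsp2, lgsn, mipa and its paralog mipb, whose groups overlapped at 957, 557 and 595 and 695, 1131 and 936.

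Library by library, the lens list was level in the exposed larvae and scattered in the controls. Its mean log2 level, centred on the 6 libraries, was 0.23, 0.29 and 0.17 in exposed replicates 1, 2 and 3 and 0.25, -0.37 and -0.58 in DMSO replicates 1, 2 and 3. DMSO replicate 1 was thus as high as the exposed libraries. It lay below all of them in only 11 of 49 genes, where DMSO replicate 2 did so in 44 and DMSO replicate 3 in 45. The crystallin crybb1 shows the pattern, with 16517, 11679.6 and 4566 in DMSO and 15702, 18237 and 14622 in the exposed larvae. The median of the list was 0.77 without DMSO replicate 1, 0.42 without replicate 2 and 0.31 without replicate 3. It stayed above 0 in each fit with a library left out, at 0.31 to 0.77, and was 0.46 after quantile normalization. With DMSO replicate 3 as the only control that shares the index of the exposed libraries it was 0.80.

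**Figure D3:**
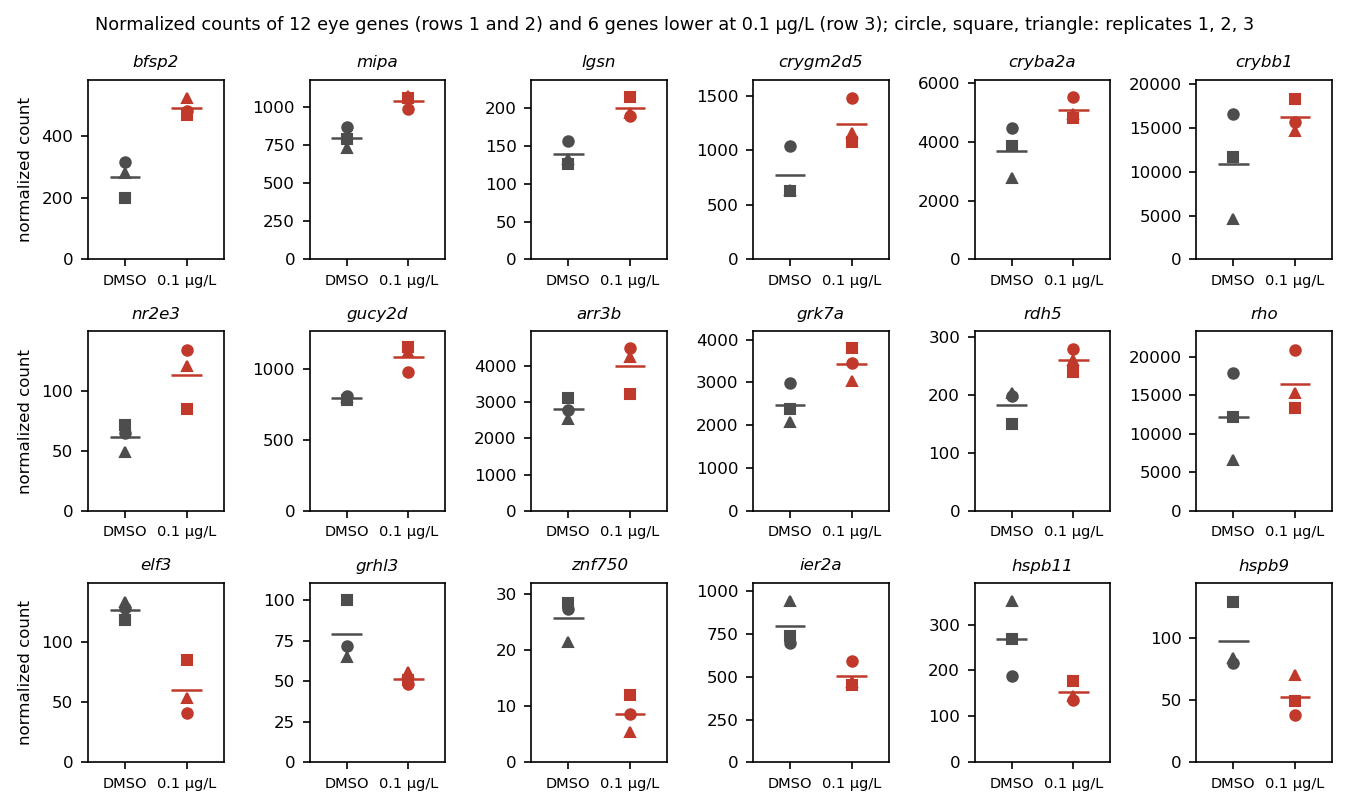
Normalized counts (y axes, from 0) of 12 eye genes and 6 genes with lower values at 0.1 µg/L PFNA in the 3 DMSO libraries (grey) and the 3 exposed libraries (red), with a line at each group mean. The groups are apart in bfsp2, mipa, lgsn, gucy2d and nr2e3 and overlap in crybb1 and rho, where DMSO replicate 1 is as high as the exposed libraries.

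Photoreceptor genes had the second highest median of the tissue lists, 0.25, and 46 of 54 were above DMSO. At an unadjusted p under 0.05, 8 were higher and 0 lower, beside 0.755% and 0.813% of all genes. The exposed libraries were all above the controls in 10 and all below in 0, beside 3.65% and 2.98%. The regulator nr2e3 (ENSDARG00000045904), a nuclear receptor that represses cone genes in rods, had 64.7, 71.3 and 48.8 normalized counts in DMSO and 134, 84.5 and 121 in the exposed larvae. This was a log2 difference of 0.86 ± 0.27 (unadjusted p = 0.0109), without overlap. The guanylate cyclase gene gucy2d (ENSDARG00000026820), whose enzyme restores cyclic GMP after light, had nearly equal values in DMSO, 809.8, 781 and 801, and 982, 1153 and 1118 in the exposed larvae. Its log2 difference was 0.44 ± 0.14.

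Genes of the cone light response were among them. The cone arrestin gene arr3b had 2792, 3120.3 and 2539 in DMSO and 4480.1, 3212 and 4246 in the exposed larvae, where exposed replicate 2 was close to the highest control. The cone opsin kinase gene grk7a had 2990.3, 2378 and 2066 and 3459.7, 3792 and 3034, a difference of 0.48 ± 0.18. The cone phosphodiesterase gene pde6c had 7756, 6919.6 and 5153 and 8804, 9134 and 8813, a difference of 0.45 ± 0.19. In these 3 genes the groups did not overlap. Of the rod genes, the transducin gene gnat1 had 706, 622 and 544 in DMSO and 819, 729 and 807 in the exposed larvae, also without overlap. Rhodopsin, rho, had 17897, 12215 and 6618 and 20858, 13384 and 15286, so that DMSO replicate 1 was higher than exposed replicates 2 and 3. The ultraviolet opsin gene opn1sw1, the photoreceptor gene with the highest mean, overlapped fully, at 28341, 22785 and 18472 and 23746, 25415 and 22628, and its difference was 0.07 ± 0.22. The green opsin gene opn1mw2, of low level, had 141, 84.4 and 98.3 and 204, 159.9 and 127, a difference of 0.60 ± 0.26, also with overlap. The other arrestin, kinase and phosphodiesterase genes of the list overlapped too except the rod arrestin gene sagb, as did the other opsin genes.

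The mean level of the photoreceptor list was 0.26, -0.01 and 0.10 in the exposed libraries and 0.02, -0.05 and -0.32 in the DMSO libraries. Exposed replicate 2 lay between DMSO replicates 1 and 2, and DMSO replicate 3 was the lowest of all. The list's median was 0.10 without DMSO replicate 3 and 0.35 without exposed replicate 2, and it remained above 0 in every fit with a library left out. Of the 8 genes below DMSO, 4 encode guanylate cyclase activating proteins (guca1a, guca1b, guca1d and guca1e), each with a mean of under 100 normalized counts. The relative guca1c, at a higher level, was above DMSO, with 1017, 1403 and 1059 in DMSO and 1758, 1407 and 1446 in the exposed larvae. Its difference was 0.41 ± 0.17, and exposed replicate 2 lay just above the highest control. The relative guca1g, with a DMSO mean of only 105, was above DMSO too, by 0.55 ± 0.33 and with overlap.

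The visual cycle and pigment list followed with 23 of 27 genes above DMSO and a median of 0.22. It also holds melanin genes such as tyr, dct and pmela, not particular to the eye, and rbp4, which is in the liver list too. At an unadjusted p under 0.05 by limma, rdh5, rdh8b and rgra were higher and none lower, beside 0.755% and 0.813% of all genes. Without overlap, these genes and rdh8a were higher and none lower, beside 3.65% and 2.98%. The retinol dehydrogenase gene rdh5, which acts in the pigment epithelium, had 198, 149.5 and 204 in DMSO and 281, 241 and 261 in the exposed larvae, a difference of 0.51 ± 0.19. A photoreceptor retinol dehydrogenase gene, rdh8b, had 603, 414 and 258 and 667, 621 and 648, a difference of 0.68 ± 0.27. The groups were apart in both genes, and DMSO replicate 3 was far lower than the other controls in rdh8b. The retinoid isomerase gene rpe65a had 1775, 881 and 820.1 in DMSO and 1842, 1319.7 and 1603 in the exposed larvae, and DMSO replicate 1 lay within the exposed values. The list's median ranged over 0.05 to 0.39 with a library left out.

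Outside these lists, 3 further genes known from the eye are given, which were picked for their values and are no count of eye genes. The transcription factor gene irx7 (ENSDARG00000002601), which is needed for retinal interneurons in zebrafish, had 83.4, 124 and 74.7 in DMSO and 169, 129 and 196 in the exposed larvae, a difference of 0.81 ± 0.26. Of the 11 irx genes, 10 were above DMSO with a median of 0.25, which was 0.04 without DMSO replicate 3. The gene impg1a, for a proteoglycan of the matrix around photoreceptors, had 584, 462 and 459.6 and 633, 778 and 689. The potassium channel subunit gene kcnv2b, whose mammalian relative is made in photoreceptors, had 108, 102 and 107 and 165, 141 and 154. Both were without overlap, with differences of 0.48 ± 0.16 and 0.53 ± 0.19.

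Neuronal genes were above DMSO in 44 of 59, with a median of 0.14 and a range of 0.01 to 0.22 with a library left out. Of the 59, 1 had an unadjusted p under 0.05, beside 1.57% of all genes. This was the intermediate filament gene inab (ENSDARG00000053248), made in neurons. It had 134, 132 and 130.3 in DMSO and 180.0, 241 and 165 in the exposed larvae, a difference of 0.54 ± 0.20. Its values in the controls were nearly equal. The list's levels were -0.02, 0.06 and -0.18 in DMSO and 0.02, 0.08 and 0.02 in the exposed libraries, so that the groups overlapped and DMSO replicate 3 was lowest. Glutamate synapse genes were above DMSO in 72 of 109, beside 50.6% of all genes, with a median of 0.09. The glutamate transporter gene slc1a2a, which clears glutamate from the synaptic cleft, had 516, 587 and 492 and 729.9, 659 and 742, a difference of 0.42 ± 0.15 without overlap. Genes of GABA and glycine transmission were above DMSO in 37 of 47, and glia and myelin genes in 18 of 30.

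**Figure D4:**
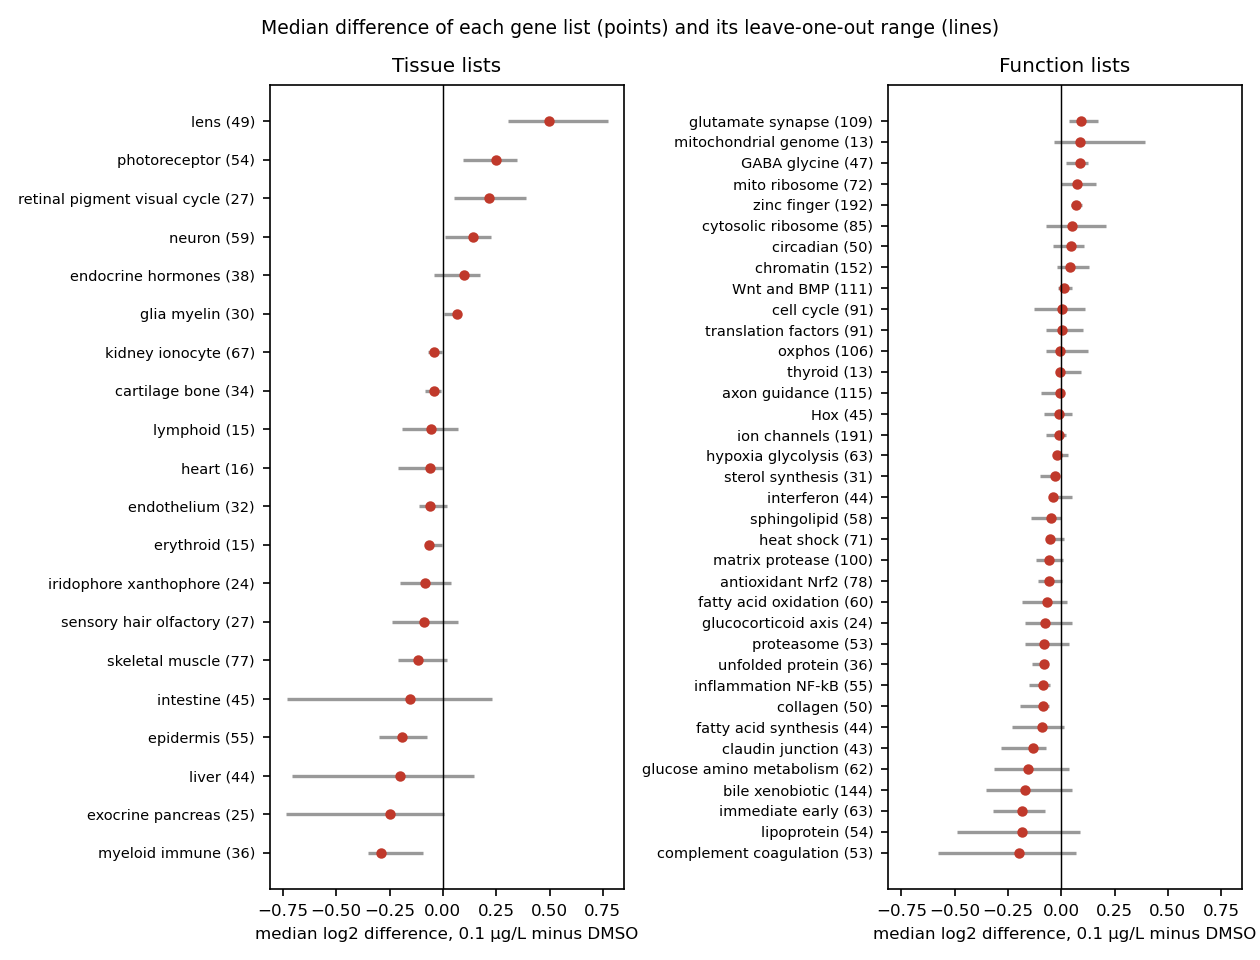
Median log2 difference between 0.1 µg/L PFNA and DMSO (x axis, points) of 20 tissue lists and 36 function lists, with the number of genes tested in parentheses and lines for the range with each of the 6 libraries left out. The lens list is highest at 0.50 and the myeloid list lowest at -0.29, and the lines of liver, intestine and exocrine pancreas cross 0.

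The smallest p on the higher side belonged to si:dkey-57a22.15 (ENSDARG00000093318), which the annotation used here gives only a clone name. It had 327, 251 and 276 in DMSO and 607, 516 and 499 in the exposed larvae, a difference of 0.93 ± 0.17 (unadjusted p = 0.00032). It was the gene nearest to a call by DESeq2, with an adjusted p of 0.117. The membrane protein gene tmem91 had 25.9, 24.2 and 26.7 and 50.9, 57.0 and 55.4, a difference of 1.06 ± 0.30 with little spread in either group. The condensin subunit gene ncaph, whose protein compacts chromosomes in mitosis, had 31.6, 44.3 and 33.5 and 94.3, 66.2 and 59.8, a difference of 0.98 ± 0.30. No common direction was seen over the cell cycle list, in which 46 of 91 genes were above DMSO. The mitotic checkpoint kinase gene bub1 had 54.7, 73.4 and 73.9 in DMSO and 37.2, 41.4 and 36.9 in the exposed larvae, without overlap and in the opposite direction to ncaph.

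Among Wnt and BMP pathway genes, 4 of 111 had an unadjusted p under 0.05 and were higher, and 0 were lower, beside 0.755% and 0.813% of all genes. Without overlap, 10 were higher and 1 lower, beside 3.65% and 2.98% of all genes. The list's median, 0.01, was near that of all genes, so these were single genes in a list that did not move as a whole. The BMP antagonist gene nog1, for noggin, had 43.2, 50.5 and 54.9 in DMSO and 73.2, 103 and 76.1 in the exposed larvae, a difference of 0.74 ± 0.26. The BMP antagonist gene grem2b, for a gremlin, had 44.6, 29.1 and 19.1 and 84.4, 45.0 and 56.5, a difference of 1.01 ± 0.39. The ligand gene bmp2a had 43.2, 50.5 and 27.4 and 75.7, 51.5 and 76.1, a difference of 0.75 ± 0.33. In these 3 genes, named for their small p, the groups did not overlap and no value exceeded 110 normalized counts.

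On the lower side, the myeloid list had the lowest median of the tissue lists, -0.29, with 28 of 36 genes below DMSO. Of the 36, 1 had an unadjusted p under 0.05, beside 1.57% of all genes. This was the cathepsin S gene ctss2.2, for a protease of antigen-presenting cells. It had 137, 173 and 178 in DMSO and 103, 123 and 123 in the exposed larvae, a difference of -0.47 ± 0.21. The macrophage scavenger receptor gene marco had 59.0, 46.4 and 41.9 and 17.4, 48.7 and 16.3, so that exposed replicate 2 lay within the controls and the other exposed libraries below them. The cytokine gene il34, whose protein sustains macrophages and microglia, had 48.9, 37.4 and 49.5 and 24.8, 30.3 and 32.6, without overlap. Outside the list, irg1l (ENSDARG00000062788), known in zebrafish to be induced in skin and macrophages by infection, had 23.0, 65.1 and 39.6 and 17.4, 13.8 and 14.1, a difference of -1.32 ± 0.45. DMSO replicate 3 was the highest library of the myeloid list, at 0.44 against -0.11 and 0.00 in DMSO replicates 1 and 2 and -0.17, 0.02 and -0.18 in the exposed libraries. Without DMSO replicate 3 the median was -0.10. The median of 55 cytokine and NF-kB genes was -0.08 and that of the 44 interferon genes -0.04, or 0.02 after quantile normalization.

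Epidermis genes were below DMSO in 43 of 55, with a median of -0.19 and a range of -0.30 to -0.08 with a library left out. The epithelial transcription factor gene elf3 (ENSDARG00000077982) had 128, 118 and 133 in DMSO and 41.0, 85.5 and 53.2 in the exposed larvae, a difference of -1.13 ± 0.29 (unadjusted p = 0.00334). The controls were close together and the exposed libraries all lower. In the list, elf3 alone had an unadjusted p under 0.05 by limma, beside 1.57% of all genes. Only elf3, grhl3 and klf17 were lower without overlap, and none was higher, beside 2.98% and 3.65% of all genes. Of the other transcription factor genes given here, grhl3, znf750 and klf17 were named because their groups did not overlap. The gene znf750 is outside the list. For grhl3, a grainyhead factor of barrier formation, the values were 71.9, 99.7 and 64.8 and 48.4, 50.5 and 55.4, a difference of -0.58 ± 0.27. For znf750 (ENSDARG00000102267), a zinc finger gene needed for terminal epidermal differentiation in mammals, they were 27.3, 28.4 and 21.3 and 8.69, 11.9 and 5.43, a difference of -1.51 ± 0.49. For the Krüppel-like factor gene klf17 they were 50.3, 54.7 and 61.7 and 39.7, 33.1 and 43.5. In the list, the epidermal regulators tp63, grhl1, grhl2b and grhl2a differed by -0.19, -0.24, -0.62 and 0.02, and their groups overlapped.

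The groups overlapped in the keratin genes that the skin makes in bulk. The type II keratin gene krt4, the highest of the list, had 91184, 69305 and 104763 in DMSO and 54137, 109592 and 48908 in the exposed larvae, with exposed replicate 2 above every control and replicates 1 and 3 below them. Its difference was -0.40 ± 0.37, within the spread between libraries. The levels of the list were 0.09, -0.01 and 0.21 in DMSO and -0.18, 0.12 and -0.23 in the exposed libraries, and exposed replicate 2 lay within the controls. Tight and gap junction genes, many of them epithelial, had a median of -0.13, with 4 of 43 lower without overlap and 2 higher, beside 2.98% and 3.65% of all genes. Of 50 collagen genes 35 were below DMSO. Without overlap, 5 were lower and 1 higher, col4a4, beside 2.98% and 3.65% of all genes. The collagen gene col8a1a had 25.9, 28.4 and 50.3 and 2.48, 17.5 and 9.78, a difference of -1.96 ± 0.65, and its paralog col8a1b had 25.9, 31.8 and 23.6 and 18.6, 13.8 and 10.9.

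**Figure D5:**
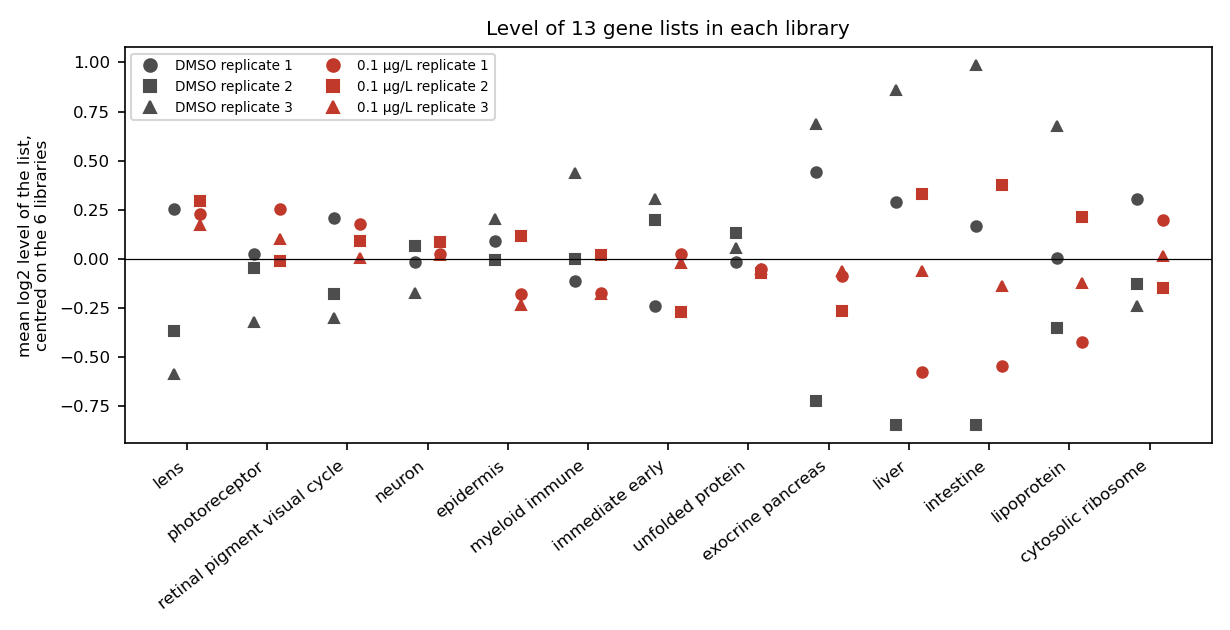
Mean log2 level of 13 gene lists, centred on the 6 libraries (y axis), in each DMSO library (grey) and each library exposed to 0.1 µg/L PFNA (red). The exposed libraries lie together for lens and exocrine pancreas, where DMSO is scattered, and unfolded protein is the list in which the groups do not overlap.

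Lists of stress responses had medians below 0. Immediate early genes, which cells switch on within minutes of a stimulus, were below DMSO in 47 of 63 with a median of -0.18 and a range of -0.32 to -0.08 with a library left out. The gene ier2a (ENSDARG00000099195) had 700.5, 736 and 946 in DMSO and 595, 452 and 468 in the exposed larvae, a difference of -0.65 ± 0.18 (unadjusted p = 0.00491). The phosphatase gene dusp1 had 640.1, 886 and 1599.9 and 646, 498 and 629, where exposed replicate 1 was higher than DMSO replicate 1. The transcription factor gene fosab, a classical member, overlapped, at 650.1, 917 and 1233 and 936, 388 and 749.8. Over the list, DMSO replicate 1 was among the lowest libraries, at -0.24, and DMSO replicates 2 and 3 were at 0.20 and 0.30. DMSO replicate 1 lay above all exposed libraries in 4 of 63 genes and below all of them in 20. DMSO replicates 2 and 3 lay above all of them in 31 and 37. The lower side of the list thus rested mainly on DMSO replicates 2 and 3.

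Unfolded protein genes were the only 1 of 56 lists whose mean level did not overlap between the groups, and the step was small. With 56 lists compared, a single list apart is not read as a response. Among single genes the groups did not overlap in 6.63%, a share that does not carry over to the mean of a list. The levels were -0.02, 0.13 and 0.06 in DMSO and -0.05, -0.07 and -0.05 in the exposed libraries, and the median difference was -0.08, with a range of -0.14 to -0.07 with a library left out. Of the 36 genes, 26 were below DMSO, 4 of them without overlap, beside 2.98% of all genes. At an unadjusted p under 0.05 there were 0, beside 1.57% of all genes. The regulator gene xbp1, which drives chaperone genes of the endoplasmic reticulum, had 1526, 1369.8 and 1522 in DMSO and 1178, 1322 and 1151 in the exposed larvae, a difference of -0.28 ± 0.14. The neurotrophic chaperone gene manf had 89.2, 95.5 and 90.7 and 77.0, 57.9 and 77.2, a difference of -0.38 ± 0.24. The glutathione-degrading enzyme gene chac1 had 9887, 11709 and 13431 and 9189, 9256 and 9548. The groups were apart in all 3 genes, by less than 0.4 on the log2 scale. The endoplasmic reticulum chaperone gene hspa5 overlapped, with 1401, 1239 and 957 in DMSO and 1433, 1251 and 1238 in the exposed larvae, a difference of 0.14 ± 0.17.

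Heat shock genes as a whole were near 0, with a median of -0.05, but 9 of 71 were lower without overlap against 3 higher, beside 2.98% and 3.65% of all genes. The small heat shock protein gene hspb11 had 188, 269 and 351 in DMSO and 135, 176 and 145 in the exposed larvae, a difference of -0.78 ± 0.25. Its relative hspb9 had 80.5, 129 and 83.8 and 38.5, 49.6 and 70.6, a difference of -0.89 ± 0.31. The muscle chaperone genes hsp90aa1.1 and unc45b, which fold myosin, differed by -0.31 and -0.38 on the log2 scale, both without overlap. Skeletal muscle genes had a median of -0.11, which was 0.02 without DMSO replicate 1. Antioxidant and Nrf2 genes had a median of -0.06. Of the 78, 1 was lower at an unadjusted p under 0.05, the peroxidase gene gpx7, beside 0.813% of all genes.

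The digestive organs varied more between libraries of 1 group than between the groups. Liver genes had a median of -0.20 with 34 of 44 below DMSO, and intestine genes a median of -0.15 with 39 of 45 below. The level of the liver list was 0.29, -0.85 and 0.86 in DMSO and -0.58, 0.33 and -0.06 in the exposed libraries. That of the intestine list was 0.17, -0.85 and 0.99 and -0.55, 0.37 and -0.14. DMSO replicate 3 lay above all exposed libraries in 38 of 44 liver genes and 42 of 45 intestine genes, while DMSO replicate 2 lay below all of them in 33 and 29. The controls thus bracketed the exposed larvae. Without DMSO replicate 3 the medians turned to 0.15 and 0.23, without exposed replicate 1 they were 0.02 and 0.05, and without DMSO replicate 2 they were -0.71 and -0.73. No direction is therefore given for these organs.

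The apolipoprotein gene apoa1b had 39545, 12592 and 38249 in DMSO and 14812, 33688 and 25633 in the exposed larvae, where DMSO replicate 2 and exposed replicate 1 were the lowest libraries. The gene of the liver list with the smallest p was fabp10b, a paralog of the liver fatty acid binding protein gene fabp10a. It had 31.6, 59.5 and 26.7 in DMSO and 19.9, 17.5 and 15.2 in the exposed larvae. This was a difference of -1.04 ± 0.42 (unadjusted p = 0.0321) without overlap, at a level of few reads. It was the only 1 of the 44 genes of the liver list with an unadjusted p under 0.05, beside 1.57% of all genes. Its highest value was in DMSO replicate 2, the library with the lowest level of the liver list. The gene fabp10b thus did not follow the list and is not read as a change of the liver. The abundant paralog fabp10a overlapped, at 18269, 5631 and 11367 in DMSO and 9518, 11999 and 11918 in the exposed larvae. Its difference was 0.07 ± 0.36.

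Exocrine pancreas genes were below DMSO in 22 of 25, with a median of -0.25. The exposed libraries lay within 0.20 of each other on the log2 scale, at -0.08, -0.26 and -0.06, while the DMSO libraries were at 0.44, -0.72 and 0.69. Trypsin, prss1, shows this with 26095, 10227 and 20198 in DMSO and 16723, 13598 and 15795 in the exposed larvae. DMSO replicates 1 and 3 lay above all exposed libraries in 24 and 23 of 25 genes, and DMSO replicate 2 below all of them in 20. Without DMSO replicate 1 the median was 0.01, without DMSO replicate 2 -0.74 and without DMSO replicate 3 -0.02.

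The lists of lipid metabolism had medians near or below 0. Lipoprotein genes had a median of -0.18, or 0.09 without DMSO replicate 3, and their levels were 0.01, -0.35 and 0.67 in DMSO and -0.42, 0.22 and -0.12 in the exposed libraries. The lipoprotein receptor gene ldlrb had 57.5, 108 and 61.7 in DMSO and 57.1, 38.6 and 20.6 in the exposed larvae, with exposed replicate 1 just under the lowest control. Fatty acid oxidation genes, which include PPAR targets, had a median of -0.07, fatty acid synthesis genes -0.09 and sterol synthesis genes -0.03. The first of these turned to 0.03 without DMSO replicate 3. Of the 60 oxidation genes 0 had an unadjusted p under 0.05, beside 1.57% of all genes. The PPAR target gene pdk4, for a kinase that spares glucose in fasting, had 509, 545 and 804 and 452, 489 and 462, without overlap and with a difference of -0.38 ± 0.19. Sphingolipid genes had a median of -0.05, with 23 of 58 above DMSO. The smallest p of the list was that of s1pr2, for a receptor of sphingosine 1-phosphate needed for heart tube formation in zebrafish. It had 51.8, 20.1 and 51.8 in DMSO and 7.45, 31.2 and 9.78 in the exposed larvae, a difference of -1.44 ± 0.60, with exposed replicate 2 within the controls. The acid ceramidase gene asah1a had 148, 134 and 174 and 103, 118 and 119.5, without overlap, while hexb, for a lysosomal hexosaminidase, had 882, 879.7 and 726 and 1091, 943 and 903 in the opposite direction.

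Families of genes that share a symbol stem were compared without regard to tissue. Medians of the 313 families with at least 8 tested genes lay between -0.19 and 0.14 for the middle 90%. After crygm, the highest medians were those of kcnh potassium channels (0.29, 7 of 8 above DMSO), irx, prdm (0.24, 11 of 14 above) and gnb. The lowest were those of gna, acot acyl-CoA thioesterases (-0.36, 11 of 12 below), btr (-0.33, 11 of 12 below), aqp water channels (-0.31) and adamts proteases (-0.31). Genes of heterotrimeric G proteins were found among both the highest and the lowest families. All 8 genes of the stem gnb, for beta subunits, were above DMSO with a median of 0.23, and all 8 genes of the stem gna, for alpha subunits of the Gq and G12 classes, were below it with a median of -0.42. This stem leaves out other alpha subunit genes, among them gnat1 and the cone transducin gene gnat2, which differed by 0.34 and 0.40. In none of these 16 genes were the groups apart, and without DMSO replicate 3 the medians were 0.08 and -0.30. The gene GNB4 had 1.44, 14.5 and 27.4 in DMSO and 8.69, 23.0 and 7.61 in the exposed larvae. It was above DMSO on the log2 scale only, since the ratio of its means was 0.90. The genes gnb3a and gnb3b are also in the photoreceptor list. The gna genes were lowest in exposed replicate 1, at -0.77, and at 0.39 in exposed replicate 2. Without DMSO replicate 3 the acot median was -0.16, that of btr -0.24, that of aqp 0.01 and that of adamts -0.08. The lowest median with a library left out was 0.09 for kcnh and 0.17 for prdm, and none of the 10 medians changed sign after quantile normalization.

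Some other genes had a small p. The lowest p on the lower side was that of BX248082.1 (ENSDARG00000105408), a gene with a clone name, which had 64.7, 63.7 and 55.6 in DMSO and 18.6, 19.3 and 21.7 in the exposed larvae. Its difference was -1.58 ± 0.31 (unadjusted p = 0.00051) with close agreement within both groups. The transcription factor gene mafa, known from pancreatic beta cells and from lens in vertebrates, had 54.7, 45.0 and 38.9 and 18.6, 22.1 and 14.1, a difference of -1.30 ± 0.36. It was thus below DMSO, where most lens genes were above. The chromatin gene bahcc1a had 93.5, 56.1 and 80.8 and 45.9, 28.5 and 30.4, a difference of -1.11 ± 0.32. The heme synthesis gene alas2, the enzyme of red cell precursors, had 74.8, 56.8 and 67.1 and 44.7, 35.8 and 35.9, a difference of -0.75 ± 0.28, and 8 of 15 red cell genes were below DMSO. The cortisol synthesis gene cyp11c1 had 67.6, 74.1 and 47.3 in DMSO and 90.6, 90.1 and 109.8 in the exposed larvae, a difference of 0.63 ± 0.26 in the higher direction.

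Genes of neural development, apoptosis and oxidative stress were also assayed by real-time PCR in the study, and their levels in the sequencing libraries are given here. The 29 genes tested here include paralogs, such as casp3a and casp3b, and do not cover every target, so they are not a count of the assays. Of the 29, 14 were above DMSO and 15 below, and 21 differed by less than 0.2 on the log2 scale. At an unadjusted p under 0.05 there were 0, beside 1.57% of all genes. The only gene whose groups did not overlap was manf, beside 6.63% of all genes. The heme oxygenase gene hmox1a, a target of oxidative stress, had the lowest difference. Its values were 80.5, 81.0 and 89.9 in DMSO and 49.7, 87.3 and 41.3 in the exposed larvae, a difference of -0.56 ± 0.31, and exposed replicate 2 lay within the controls. The morphogen gene shha had the highest, at 0.33 ± 0.20, with 516, 442 and 345 and 598, 432 and 599.9. Superoxide dismutase 2, sod2, differed by 0.02 ± 0.14 and the glial filament gene gfap by 0.05 ± 0.16, both within the spread between libraries.

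The larvae exposed to 10 µg/L PFNA were compared with the same 3 DMSO libraries in a table normalized on its own, so the values of both concentrations share their controls. The medians at 0.1 and 10 µg/L were 0.50 and 0.21 for lens genes and 0.25 and 0.10 for photoreceptor genes. For bfsp2 the differences were 0.90 and 0.67, and for gucy2d 0.44 and 0.55. Liver genes had -0.20 and 0.36 and intestine genes -0.15 and 0.44. The values at 0.1 µg/L were 0.15 and 0.23 without DMSO replicate 3, so no contrast between the concentrations is drawn from them. Myeloid genes had -0.29 and -0.01, and epidermis genes -0.19 and -0.09. The gene elf3 had -1.13 and 0.31. Cytosolic ribosomal protein genes had 0.05 at 0.1 µg/L, with 62 of 85 above DMSO, and -0.52 at 10 µg/L. Without DMSO replicate 3 the ribosomal median at 0.1 µg/L was -0.07, without DMSO replicate 2 -0.01 and without exposed replicate 1 -0.05.

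The other lists were close to all genes or turned with single libraries. The 13 protein genes of the mitochondrial genome were all above DMSO, with a median of 0.09, but the groups overlapped in each and the median was -0.03 without DMSO replicate 3 and -0.03 without DMSO replicate 2. Genes of the mitochondrial ribosome were above DMSO in 54 of 72, with a median of 0.07. Its gene mrpl52, for a protein of the large subunit, had 124, 123 and 112 in DMSO and 182, 163 and 171 in the exposed larvae, a difference of 0.52 ± 0.19. Nuclear genes of oxidative phosphorylation had a median of -0.00. Zinc finger genes, most of them of unknown target, were above DMSO in 118 of 192, with a median of 0.07 and a range of 0.04 to 0.10 with a library left out.

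Complement and coagulation genes, made mainly in liver, were below DMSO in 42 of 53, with a median of -0.20 that was 0.07 without DMSO replicate 3. Genes of xenobiotic and bile acid metabolism, which handle foreign chemicals, were below in 103 of 144, and their median of -0.17 was 0.05 without that library. Glucose and amino acid genes, at -0.16, were at 0.04 without it. These lists thus followed DMSO replicate 3 as the liver list did. Kidney and ionocyte genes had a median of -0.04, heart genes -0.06, cartilage and bone genes -0.04 and genes of hair cells and olfactory cells -0.09. None of the tested kidney and ionocyte, heart or lymphoid genes had an unadjusted p under 0.05, beside 1.57% of all genes. In lists of this size that share amounts to few genes.

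Over all lists, 6 of the 20 tissue lists and 11 of the 36 function lists had a median above 0 at 0.1 µg/L. In 55 of the 56 lists the range of the 3 DMSO libraries was wider than the difference between the group means. The medians of 18 lists kept their sign under all 15 alternative settings computed for them. These include lens, photoreceptor, visual cycle and pigment, neuron, epidermis, myeloid, immediate early and unfolded protein genes. A setting that changes only the test, and not the differences, cannot turn a median. Leaving out DMSO replicate 3 alone turned the sign of 24 lists. The erythroid, endothelium, lymphoid, interferon, ion channel, Hox and thyroid medians, all between -0.06 and -0.01, were above 0 after quantile normalization.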

How the data were processed

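RNA of pooled larvae was sequenced as poly(A) libraries. Per the submitters' processing notes, the reads were trimmed with Trimmomatic 0.36, aligned to GRCz10 with STAR 2.5.2b, counted with featureCounts of Subread 1.5.2, which took uniquely mapped reads on exons, and normalized with DESeq2. The signal deposited by the authors is the read count of a gene divided by the DESeq2 size factor of its library, one table per concentration, each normalized with the DMSO libraries. The deposited tables also hold the authors' log2 fold changes, p-values and adjusted p-values, which were used in nothing here. The libraries were directional, and the methods say that reads were counted by strand where the preparation kept it.

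In every library, 100% of the values were whole multiples of the worth of 1 read (within 0.01 reads), and the recovered reads were used for the alternative count tests. The differences were tested with limma 3.58.1 (moderated test with a trend, two-sided, R 4.3.3) on log2 of the normalized count plus 1, for genes with a mean of at least 10, with Benjamini-Hochberg adjustment over all 19065 genes. As alternatives, the recovered reads were tested with edgeR 4.0.16 and with DESeq2 1.42.0, both calling 0 genes at an adjusted p under 0.05. The pseudocount was set to 0.5 or 5, the minimum mean to 1, 50 or none, the scaling to quantile or TMM, and the trend was dropped. The first index entered as a covariate or the replicate number as a block, and each library was left out in turn. The scripts were tested on simulated data.

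The gene lists and the members of the comparison were chosen with earlier results of these data known. Lists and families were described by counts and medians, with no test. Genes were named by rule: the 15 smallest p in each direction, the 10 largest differences without overlap among genes with a mean of 50 or more, up to 3 genes per list and direction without overlap, the genes assayed by real-time PCR, the 10 largest loadings of each sign on the first component and the highest gene of each tissue list. The genes cryba2a, crygm2d13, mipa, lgsn, gnat1, grk7a, pde6c, rho, rpe65a, impg1a, marco, irg1l, dusp1, fosab, hspa5, hsp90aa1.1, unc45b, gpx7, fabp10a, guca1c, guca1g, opn1mw2, sagb, gnat2, GNB4, gnb3a, gnb3b, tp63, grhl1, grhl2b, grhl2a, s1pr2 and mipb fell outside this rule and were chosen after their values were seen, as were the members named only for completing a count. No sequences are printed, and some items withheld for evaluation are not reported here. Of 19251 genes, 18639 had a symbol in the table.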

Additional observations from a re-analysis of the deposited data

How the results depend on the processing

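No gene passed an adjusted p under 0.05 under any of the 18 alternatives run, and the lowest adjusted p was 0.117 by DESeq2 and 0.874 with a library left out. The 299 genes at an unadjusted p under 0.05 became 2191 with the first index as a covariate, which leaves 1 control library on the index of the exposed larvae, and 450 without a trend. With a library left out there were 110 to 853. The 1264 genes whose groups did not overlap became 2047 to 4349 with a library left out, where fewer samples have to be apart. The cause of the other changes was not tested.

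The replicate numbers are shared by both groups, but some of the submitters' library labels carry other numbers. The correlations of same-numbered deviations were 0.28, -0.36 and -0.24. Deviations from a mean of 3 libraries are tied to each other, so these values cannot decide whether samples were paired. With the replicate block, 187 genes had an unadjusted p under 0.05.

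Among the named genes, log2 differences that changed sign with a library left out included the following, over the ranges given. They were apoa1b (-0.73 to 0.14), prss1 (-0.58 to 0.092), opn1sw1 (-0.088 to 0.22), hspa5 (-0.015 to 0.26), gfap (-0.054 to 0.16), sod2 (-0.011 to 0.073), grhl2a (-0.32 to 0.36) and fabp10a (-0.38 to 0.47). Genes named without a difference also did so: guca1a (-0.41 to 0.24), guca1b (-0.43 to 0.022), guca1d (-0.69 to 0.090), guca1e (-0.58 to 0.056), casp3b (-0.29 to 0.023), GNB4 (-0.74 to 1.03) and gnb3b (-0.070 to 0.32). After quantile normalization gfap was at -0.020 and sod2 at -0.019, and with the first index as a covariate gfap was at -0.0028 and tp63 at 0.17. The difference of grhl2a was -0.11 by DESeq2 and -0.12 by edgeR. Of the other alternative values counted for named genes, 1372 kept their direction. That count leaves out fabp10a, these guca1 genes, guca1g, casp3b, GNB4, gnb3a and gnb3b. Of the list medians, 794 moved by less than the spread between replicates and 46 by more. Dropping the trend, blocking by replicate and changing the minimum mean cannot change the log2 difference of a gene. These settings therefore add nothing to the 1372. Neither the trend nor the block can move a list median. Depth limits the lowest genes named, where values such as 2.48 for col8a1a rest on a few reads.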
